A study of Mus musculus with 672 samples.

Results

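Tip and trunk are the 2 compartments into which the branching epithelium of the mouse embryonic pancreas divides. The cells compared here were epithelial cells of E13.25 (E, embryonic day), sorted singly from C57BL/6 pancreata, and they were assigned to a side by the read counts of marker genes, not by position. Of 672 sequenced cells in the series, 601 were kept, 340 of them of E13.25, and 126 of those passed an epithelial gate: at least 30 CPM (read counts per 1000000 reads on genes) of Epcam, an epithelial adhesion molecule, under 300 CPM of the collagen Col3a1 and under 30 CPM of the endocrine factor Neurod1. Tip cells had at least 1000 CPM of Cpa1, which encodes carboxypeptidase A1, and trunk cells had less Cpa1 and at least 1000 CPM of Spp1, which encodes osteopontin. The gate gave 50 tip cells and 71 trunk cells, and 5 epithelial cells fell on neither side. The members were thus chosen on measured Cpa1, Spp1, Epcam, Col3a1 and Neurod1, whose values are descriptions without a test.

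At this age the tips hold progenitors that are turning to acinar, enzyme-secreting fate, and the trunk holds bipotent cells that give rise to ducts and, through a Neurog3-positive step, to endocrine cells. Ptf1a and Rbpjl, partners in the acinar PTF1 complex, mark the tip side, and Sox9 and Nkx6-1 mark the trunk. Notch signalling between neighbouring cells takes part in both the separation of the sides and the restriction of Neurog3.

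The E13.25 cells came from 4 plates of 96 wells, which the labels number as pancreas 1 to 4. Titles of the fourth also carry a mouse number that the others lack. Whether each plate came from its own embryo is not stated, so p-values here cover only plate-to-plate spread, and that spread may be technical. Cells had been stained and sorted by antibody, but neither the antibodies nor the gates are given in the sources used here, and the labels do not name any E13.25 cell as tip or trunk. The labels give the strain and age of all groups and name no genotype or treatment. Plates 1 to 4 held 11, 6, 18 and 15 tip cells and 13, 9, 28 and 21 trunk cells. Reads were summed per plate and side, which gave 8 sums of between 14261795 and 49664690 reads on genes.

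The sides were compared in depth and RNA measures. The median reads per cell were higher in tip than in trunk cells in 4 of 4 plates (mean of plate medians 2172552 ± 701015, SD, n = 4 plates, against 1408560 ± 683958). After each cell was thinned to 100000 reads, tip cells showed 6739 ± 252 genes and trunk cells 6320 ± 164 (SD, n = 4 plates, higher in tip in 4 of 4). The mitochondrial share of reads was 4.02% ± 0.82 in tip and 4.72% ± 0.59 in trunk, lower in tip in 4 of 4 plates. The share of ERCC spike-in reads was 12.2% ± 7.74 in tip and 14.4% ± 8.30 in trunk, also lower in tip in 4 of 4 plates. Each of these 4 differences had an exact sign-flip permutation p of 0.13 (two-sided), the smallest that 4 plates allow. Other measures did not run one way: the unthinned median number of genes was higher in tip in 3 of 4 plates (exact p = 0.25), and so was the share of reads not aligned, with plate 1 the other way at 26.5% in tip and 45.3% in trunk (exact p = 1). Their part in the gene differences below was not tested.

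**Figure D1:**
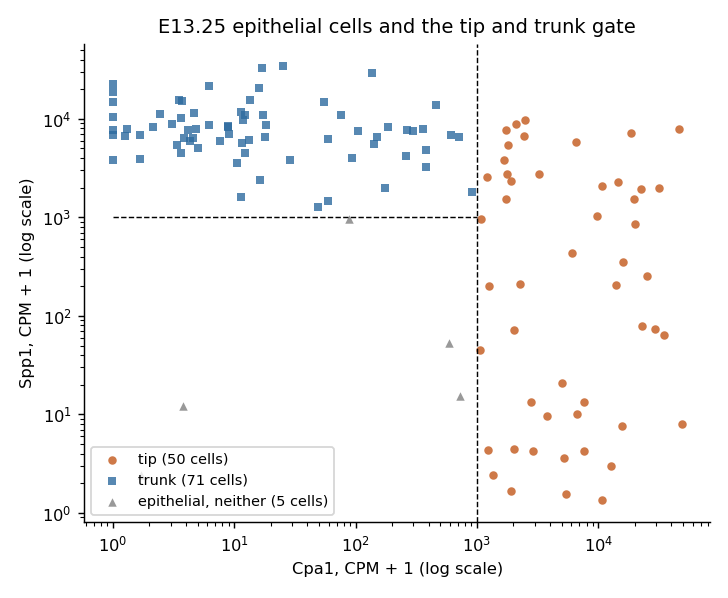
Each point is 1 of the 126 E13.25 epithelial cells, with Cpa1 on the x axis and Spp1 on the y axis (CPM + 1, log scales), and dashed lines mark the minimum of 1000 CPM. Trunk cells lie at the upper left and reach 34598 CPM of Spp1. The tip cells to the right spread from 0.342 to 9785 CPM of Spp1, 20 of the 50 being at or above the Spp1 minimum.

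The sides were not equally sharp. Cpa1 averaged 9709 ± 3165 CPM in tip sums and 71.01 ± 46.8 CPM in trunk sums, and Spp1 averaged 1492 ± 408 CPM in tip and 9393 ± 1911 CPM in trunk. Of the 50 tip cells, 20 also had Spp1 of at least 1000 CPM, in numbers of 4, 3, 7 and 6 in plates 1 to 4. The 3 cells just under the Cpa1 minimum had 709, 718 and 915 CPM and the 3 just over it had 1063, 1081 and 1221 CPM. Among cells under the Cpa1 minimum, to which the Spp1 minimum applies, the nearest under it had 968, 51.8 and 14.4 CPM of Spp1 and the nearest over it had 1265, 1449 and 1607 CPM. Tip cells, for which Spp1 was not a criterion, also lay near that value, for example at 849, 968 and 1027 CPM. Cells of intermediate Cpa1 were few below the limit (9 cells from 300 to 1000 CPM) and more common above it (21 cells from 1000 to 3000 CPM). Epcam itself was alike on both sides, at 1420.1 ± 318 and 1332 ± 305 CPM.

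The labels tip and trunk were then checked against marker genes outside the gate. Of the further tip markers, Ptf1a, Rbpjl, Gata4, Cel, Clps and Bhlha15 had 4 tip sums above all 4 trunk sums, while Nr5a2 and Myc overlapped. Of the further trunk markers, Sox9, Nkx6-1, Glis3, Bicc1 and Pkhd1 had all trunk sums above all tip sums. Hes1 and Onecut1 overlapped, and Tspan8 was too low to test, with at most 0.0806 CPM in a tip sum and 5.10 CPM in a trunk sum. For scale, all 4 sums of a side lay above those of the other for 715 of 14237 tested genes in favour of tip (5.02%) and 777 in favour of trunk (5.46%). Of the defining genes of other cell types, Ptprc did not exceed 0.181 CPM and Pecam1 0.421 CPM in any sum, Ins2 and Gcg had no read, and Dcn stayed at or below 2.04 CPM. The gate on low Col3a1 and Neurod1 may itself hold down Dcn, Ins2 and Gcg, so their low values are no separate check. The leukocyte marker Csf1r reached 7.79 CPM in the trunk sum of plate 4. Other members of those lists were present or differed between the sides, and some are given with their lists further on.

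The tip and trunk sums were compared gene by gene with edgeR, with the plate as a block. At an adjusted p under 0.05, 15 of 14237 genes (0.105%) were higher in tip and 7 (0.0492%) were higher in trunk, and the difference ran the same way in 4 of 4 plates for all 22 (0.155% of those tested). Genes higher in tip included the digestive enzymes Prss2 and Cela1, the plasma carrier proteins Serpina6, Gc and Ttr, and the transcription factor Xbp1. Genes higher in trunk included the annexin Anxa2, the tropomyosin Tpm1 and the matrix protein Sparc. At an unadjusted p under 0.05 the counts were 813 (5.71%) and 902 (6.34%). Without the plate block 90 (0.632%) and 59 (0.414%) genes passed, 13 and 6 of them among the 22, and DESeq2 called 633 (4.45%) and 916 (6.43%), including all 22. Leaving out plate 1, 2, 3 or 4 left 0, 1, 0 and 1 genes higher in tip and 0 in trunk by edgeR, and 1 of these 2 genes, that without plate 4, was among the 22. All 22 kept their direction each time.

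Of the trypsinogen Prss2, an inactive precursor of a digestive protease, tip sums of plates 1 to 4 held 267, 110.3, 86.2 and 26.5 CPM, and trunk sums held 0.0583, 0, 0.0805 and 0 CPM, 5 reads in all. Every tip sum was far above every trunk sum, and the fitted log2 difference was 11.35 (SE 0.78, adjusted p = 0.0277). With so few trunk reads the size of this value depends on the prior count of the fit, as it does for Edaradd, Cpne8, Mmd2 and Gm8773. How reads shared with near-identical trypsinogen paralogs were counted is not given in the sources used here, so this value is uncertain as to the gene. Cela1, an elastase, stood at 1307, 870.2, 595 and 1508 CPM in tip and 3.26, 0.112, 2.09 and 1.70 CPM in trunk sums. Its log2 difference was 9.48 (SE 0.84, adjusted p = 0.0458), and the groups were again far apart.

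The other enzymes missed the threshold. The early list (carboxypeptidases, lipases, colipase and further acinar products) had 16 members besides Cpa1, of which 9 passed the filter on low counts, none passed the test, 7 had an unadjusted p under 0.05 in favour of tip and 6 did not overlap. The late list (trypsinogens, chymotrypsins, elastases, amylase) had 16 members, 6 of them tested, 2 called, and 5 without overlap. Among all tested genes, 5.71% had an unadjusted p under 0.05 and 5.02% did not overlap in favour of tip. Median log2 differences of the tested members were 8.31 and 9.51, against -0.05 over all tested genes. Since an enzyme that only the tip expresses passes the filter through the tip, these medians describe the lists and test nothing. The chymotrypsinogen Ctrb1 averaged 5116 ± 2368 CPM in tip and 11.95 ± 16.7 CPM in trunk, and the lipase-related Pnliprp1 5294 ± 1306 against 16.1 ± 10.4 CPM. Colipase (Clps), a cofactor of pancreatic lipase, averaged 3069 ± 1406 against 163 ± 49.99 CPM, just outside the threshold (adjusted p = 0.0504). Without the block, all 11 members of the early (6) and late (5) lists that did not overlap passed.

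The PTF1 complex joins Ptf1a, an E protein and Rbpjl, and binds an E-box together with a TGGGAA box in acinar promoters. The 250 bases before the start of an enzyme (Cel), of the complex's own subunit Rbpjl and of Cela1 are shown as tip examples, and those of Anxa2 and Sparc, called in trunk, as counterparts. They are RefSeq sequences on GRCm38.p6, the build the files use as mm10, written 5′ to 3′ on the gene's strand. Capitals mark E-boxes (CAGCTG or CACCTG) and the RBPJ box TGGGAA, on either strand, so CAGGTG is CACCTG read from the other strand. Cel lies at chr2:28563404-28563653 (reverse strand), Rbpjl at chr2:164402944-164403193 (forward strand), Cela1 at chr15:100687921-100688170 (reverse strand), Anxa2 at chr9:69453433-69453682 (forward strand) and Sparc at chr11:55420081-55420330 (reverse strand).
Cel: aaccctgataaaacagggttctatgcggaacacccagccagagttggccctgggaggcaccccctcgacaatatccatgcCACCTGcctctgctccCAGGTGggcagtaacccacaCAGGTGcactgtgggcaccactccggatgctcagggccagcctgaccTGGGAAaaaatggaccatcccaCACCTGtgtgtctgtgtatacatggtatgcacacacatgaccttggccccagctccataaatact
Rbpjl: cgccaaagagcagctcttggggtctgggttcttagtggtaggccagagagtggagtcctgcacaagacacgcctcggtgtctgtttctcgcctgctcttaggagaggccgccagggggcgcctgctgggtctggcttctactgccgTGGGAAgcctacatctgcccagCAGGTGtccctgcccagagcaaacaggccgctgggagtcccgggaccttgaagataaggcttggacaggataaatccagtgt
Cela1: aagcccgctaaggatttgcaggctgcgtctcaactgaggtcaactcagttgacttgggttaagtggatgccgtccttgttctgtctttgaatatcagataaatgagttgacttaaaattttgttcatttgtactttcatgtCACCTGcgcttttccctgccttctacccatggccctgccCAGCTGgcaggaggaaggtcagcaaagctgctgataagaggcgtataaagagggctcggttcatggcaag
Anxa2: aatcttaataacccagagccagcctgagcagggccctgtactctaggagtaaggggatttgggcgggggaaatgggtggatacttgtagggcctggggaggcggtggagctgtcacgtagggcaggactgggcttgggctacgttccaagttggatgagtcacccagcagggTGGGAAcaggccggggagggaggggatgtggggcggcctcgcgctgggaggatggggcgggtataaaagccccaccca
Sparc: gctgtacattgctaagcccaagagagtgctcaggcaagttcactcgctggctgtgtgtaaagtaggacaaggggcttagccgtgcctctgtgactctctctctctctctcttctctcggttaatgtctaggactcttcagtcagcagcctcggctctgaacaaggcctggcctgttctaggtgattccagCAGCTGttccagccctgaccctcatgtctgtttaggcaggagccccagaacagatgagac

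The Cel window holds 4 E-boxes and 1 RBPJ box, that of Rbpjl 1 of each, and that of Cela1 2 E-boxes and no RBPJ box. Anxa2 has an RBPJ box alone and Sparc an E-box alone. Over the 32851 promoters of the table, 21.6% held TGGGAA, 17.2% CACCTG, 13.001% CAGCTG and 6.31% an E-box together with an RBPJ box. The counts that follow are per gene, a gene counting if any of its promoters matched. On that basis the shares of the 9681 tested genes were 23.4%, 18.6%, 13.99% and 6.78% in the same order. Of 33 enzyme genes including Cpa1, 26 matched the table, and 15 of them held TGGGAA, 14 CACCTG and 8 an E-box with an RBPJ box. Of 21 matched trunk and duct genes, 11 held CACCTG, 6 TGGGAA and 4 an E-box with an RBPJ box, so CACCTG was about as common there as among the enzymes. Several of these genes are paralogs with related promoters, so they are not independent. Among the called genes, 2 of 11 matched tip genes and 1 of 7 trunk genes held both motifs, and 5 and 4 held TGGGAA. The windows shown are examples, and Cel and Rbpjl were not called. Of the called tip genes, Edaradd, Cpne8, Gamt and Gstm1 held no E-box and no RBPJ box, while Lurap1l, called in trunk, held both. The TEAD site GGAATG, also searched, was held by 4 of the 26 enzyme genes and by 12.8% of the 9681 tested genes. A match is a match of letters and does not show binding.

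Of the tip and acinar transcription factors, Xbp1 alone of 15 tested passed the test, in favour of tip (0.105% of all tested genes). Of the 15, 7 did not overlap in favour of tip and 1 in favour of trunk, and DESeq2 called 7 and 1. Among all tested genes, 5.02% and 5.46% did not overlap, and DESeq2 called 4.45% and 6.43%. Xbp1, which drives the secretory and unfolded protein response programme, stood at 1179, 1219, 829 and 621 CPM in tip sums and 157, 284, 80.96 and 74.5 CPM in trunk sums. All tip sums were above all trunk sums, with a 6.45-fold ratio of means and a log2 difference of 2.92 (SE 0.26, adjusted p = 0.0458). Rbpjl, the acinar-specific subunit of PTF1, reached 818, 845, 606 and 562 CPM in tip and 0.408, 4.43, 2.03 and 7.93 CPM in trunk. The sides did not overlap, and the adjusted p was 0.0577 with the block and 0.0048 without it.

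Ptf1a itself, the bHLH subunit, stood at 128, 294, 146 and 204 CPM in tip and 0.0583, 0, 5.36 and 0.248 CPM in trunk sums, with trunk plate 3 above the other 3 trunk sums (adjusted p = 0.134). Bhlha15 (Mist1), which organises the secretory apparatus of acinar cells, averaged 109 ± 25.04 CPM in tip and 6.93 ± 11.8 CPM in trunk. The zinc finger factor Gata4 averaged 111 ± 26 and 8.42 ± 8.01 CPM, the nuclear receptor Nr0b2 48.2 ± 18.6 and 6.90 ± 5.25 CPM, and Etv5, an ETS factor downstream of FGF signalling, 36.7 ± 12.8 and 8.89 ± 9.43 CPM. None of these 4 passed the test, and none of them overlapped between sides. Mycn lay the other way round, at 16.4 ± 15.1 CPM in tip and 166 ± 109.8 CPM in trunk, without overlap (adjusted p = 0.366). Myc averaged 478 ± 259 CPM in tip and 109 ± 125 CPM in trunk, and its plates overlapped. Nr5a2, an acinar nuclear receptor already active in early progenitors, was close on both sides, at 98.4 ± 8.84 and 82.1 ± 26.3 CPM (log2 difference 0.37, SE 0.30, adjusted p = 0.687).

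Per cell, the factors differed in how exclusive they were. At 100000 reads per cell, a read of Ptf1a was found in 82% of tip and 5.63% of trunk cells, and of Rbpjl in 94% and 18.3%. In 161 E13.25 cells of the mesenchyme gate (Col3a1 of at least 300 CPM), which should lack both, the shares were 4.35% and 9.32%, so the trunk share of Ptf1a was about that of cells outside the epithelium. Median depths before thinning were 1726802 reads in tip, 1441019 in trunk and 1218389 in mesenchyme-gate cells. Unthinned shares for Ptf1a were 82% and 25.4%. Nr5a2 was found in 86% of tip and 76.1% of trunk cells, against 3.73% in the mesenchyme gate, and the pancreatic factor Pdx1 in 88%, 71.8% and 1.86%. Those 2 genes thus had reads in most cells of both sides.

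**Figure D2:**
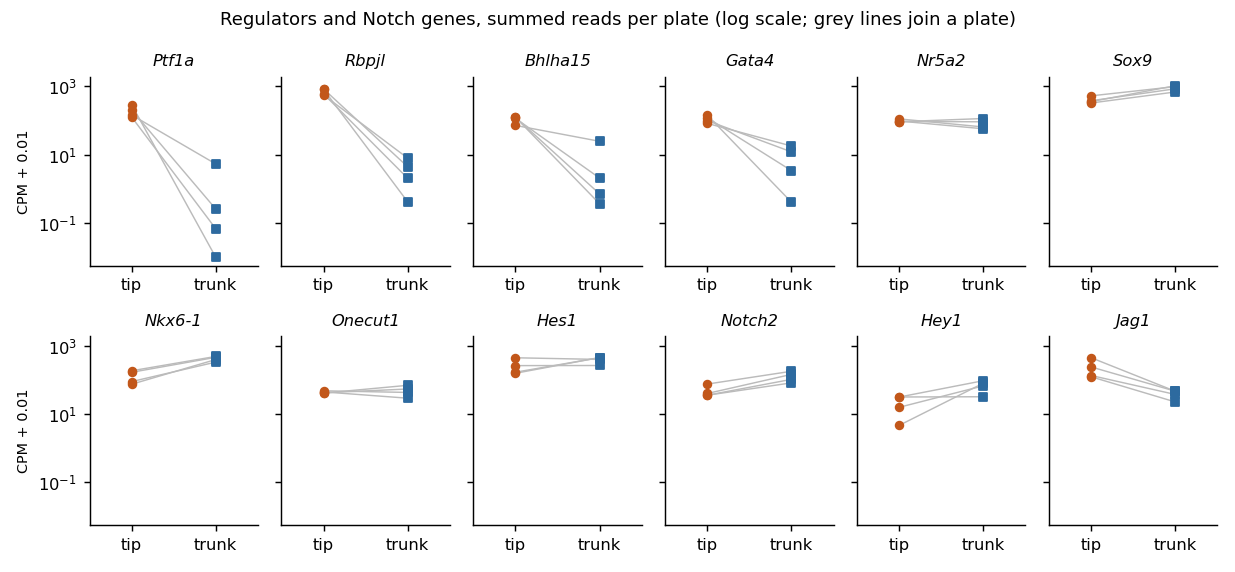
Summed CPM + 0.01 (log scale) of 12 regulators and Notch genes in the 4 tip sums (circles) and the 4 trunk sums (squares), with grey lines joining the sides of a plate. Ptf1a, Rbpjl, Bhlha15, Gata4 and Jag1 lie higher in tip in each plate, Sox9, Nkx6-1, Notch2 and Hey1 higher in trunk in each plate, and Nr5a2, Onecut1 and Hes1 overlap.

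The list of trunk and duct genes had 29 members besides Spp1, of which 25 were tested. Anxa2 was the 1 member called, in favour of trunk. It binds membranes and actin in a calcium-dependent way, and stood at 29.3, 17.9, 10.2 and 11.1 CPM in tip and 365, 351, 405 and 288 CPM in trunk sums. The lowest trunk sum was far above the highest tip sum, with a 20.6-fold ratio of means and a log2 difference of -4.43 (SE 0.32, adjusted p = 0.0277). In all, 14 of the 25 had every trunk sum above every tip sum, and 1, Anxa4, the reverse. The shares of all tested genes were 5.46% and 5.02%. The median log2 difference of the 25 was -0.96.

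Sox9, the progenitor and duct factor, stood at 327, 530, 360 and 381 CPM in tip and 688, 987, 1049.7 and 853 CPM in trunk sums. The sides did not overlap, but tip cells kept a sizeable level, with 98% of them and 98.6% of trunk cells holding a read at the fixed depth. The adjusted p was 0.0823, and 0.0459 without the block. Nkx6-1, which marks trunk progenitors and later beta cells, was at 88.99, 167, 74.4 and 185 CPM in tip and 331, 458, 394 and 486 CPM in trunk, again without overlap (adjusted p = 0.0823). The ciliary gene Dcdc2a stood at 8.04, 0.140, 1.85 and 7.58 CPM in tip and 178, 157, 169.6 and 166 CPM in trunk sums. Its trunk sums differed by little while its tip sums ran down to nearly 0 (adjusted p = 0.134, and 0.0411 without the block).

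Further duct-associated genes missed the threshold too. The simple-epithelium keratins Krt7, Krt8 and Krt18 averaged 185 ± 55.8, 407 ± 79.1 and 382 ± 73.3 CPM in tip and 654 ± 48.3, 1064 ± 185 and 1016 ± 236 CPM in trunk, with no overlap and adjusted p of 0.0838, 0.127 and 0.141. Each of the 3 passed without the block. The sodium pump subunit Atp1b1 averaged 175 ± 27.7 and 494 ± 73.1 CPM (adjusted p = 0.0658). Bicc1 and Pkhd1, both linked to cystic disease of ducts and tubules, averaged 80.5 ± 50.7 and 23.1 ± 14.2 CPM in tip and 299 ± 99.5 and 63.9 ± 8.74 CPM in trunk. Glis3, a zinc finger factor of duct and beta cells, averaged 5.04 ± 3.45 and 48.1 ± 21.9 CPM, and the protease Mmp7 averaged 8.90 ± 6.36 CPM in trunk and had 4 reads in all tip sums together. The tight junction gene Cldn3 averaged 348 ± 132 and 672 ± 47.7 CPM. Anxa4 was on the tip side, with 333 ± 75.3 against 155 ± 31.4 CPM (adjusted p = 0.094).

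Plates of some trunk markers overlapped. The homeobox factor Onecut1 averaged 43.8 ± 3.11 CPM in tip and 48.8 ± 17.02 CPM in trunk, and the keratin Krt19 61.4 ± 19.99 and 111 ± 49.4 CPM. Their log2 differences were -0.03 (SE 0.38) and -0.74 (SE 0.51). The direction of Onecut1 depended on the settings.

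Among Notch genes none of 31 tested passed the test, in either direction. At an unadjusted p under 0.05 there were 3 in favour of tip and 3 of trunk, DESeq2 called 3 and 5, and the median log2 difference was 0.04. All tested genes gave 5.71% and 6.34% at that p, and 4.45% and 6.43% by DESeq2. By role, the ligand gene Jag1 stood at 443, 238, 134 and 123 CPM in tip and 46.2, 46.5, 37.3 and 22.5 CPM in trunk sums. Tip sums were above all trunk sums, with an adjusted p of 0.0571, and 0.0318 without the block. Jag1 reads were found in 98% of tip and 53.5% of trunk cells at the fixed depth, but also in 82% of mesenchyme-gate cells. The atypical ligand Dlk1 averaged 286 ± 57.99 CPM in tip and 83 ± 41.1 CPM in trunk, also without overlap. The ligand Dll1, which newly committed endocrine progenitors express, overlapped at 89.5, 95.01, 241 and 109 CPM in tip and 283, 289, 71.5 and 51.8 CPM in trunk sums, with 2 plates higher on each side.

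The receptors pointed in different directions. Notch2 stood at 75.5, 35.5, 35.6 and 39.99 CPM in tip and 179, 81.8, 104 and 145 CPM in trunk sums without overlap (adjusted p = 0.133), and Notch1 averaged 166 ± 31.1 and 123 ± 20.7 CPM, higher in tip in 4 of 4 plates but overlapping. Of the target genes, Hes1 was at 168, 262, 156 and 445 CPM in tip and 448, 264, 451 and 398 CPM in trunk, with tip plate 4 as high as trunk sums. Hey1 averaged 20.9 ± 13.1 and 68.6 ± 26.9 CPM, without overlap (adjusted p = 0.405). Numbl, a Numb-like adaptor that antagonises Notch, averaged 1.35 ± 1.52 and 50.3 ± 40.1 CPM, without overlap (adjusted p = 0.389).

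The trunk side also held cells on the endocrine path. Neurog3, the factor that commits progenitors to endocrine fate, stood at 0.795, 0.841, 1.13 and 7.54 CPM in tip and 1044, 1101, 163 and 180.4 CPM in trunk sums. The trunk sums of plates 1 and 2 were several times those of plates 3 and 4, and all were far above the tip sums (adjusted p = 0.133, and 0.0204 without the block). Of 71 trunk cells, 25 (35.2%) had at least 30 CPM of Neurog3, in numbers of 6, 3, 8 and 8 by plate, and of 50 tip cells 2 (4%), both in plate 4. Of 20 tested genes of the Neurog3 cascade, 8 had all trunk sums above all tip sums (5.46% of all tested genes) and none was called. Without the 27 Neurog3 cells, 8 genes were higher in tip and 2 in trunk, 6 and 2 of them among the 22. The log2 difference of Dll1 was then 4.64, in favour of tip (adjusted p = 0.307), and that of the cell cycle inhibitor Cdkn1a turned from -1.11 to 0.74, neither past the threshold.

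Serpina6, which encodes corticosteroid-binding globulin, was among the most abundant called genes. It stood at 4809, 11159, 8280.3 and 8049 CPM in tip and 87.6, 187, 172 and 327 CPM in trunk sums. The groups were far apart, with a 41.7-fold ratio of means, a log2 difference of 5.53 (SE 0.26) and an adjusted p of 0.0184. The gene for the vitamin D-binding protein, Gc, was at 1726, 1768, 1678 and 1963 CPM in tip and 205, 193, 252 and 379.6 CPM in trunk, and its tip sums were nearly equal (6.92-fold, adjusted p = 0.0218). Transthyretin (Ttr), a thyroid hormone carrier, averaged 1387 ± 285 against 257 ± 123 CPM (5.39-fold, adjusted p = 0.0277).

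Liver is a known source of these proteins, so the list of gut and liver epithelium markers was read beside them. Its 15 members summed to between 1543 and 2391 CPM in tip and between 326 and 811 CPM in trunk sums, most of it Ttr and Afp. Afp averaged 301 ± 80.9 and 73.97 ± 50.9 CPM. Of the defining markers, albumin did not exceed 1.29 CPM, Cdx2 0.248 CPM and Sox2 0.0561 CPM in any sum.

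Reep5, which shapes endoplasmic reticulum tubules, averaged 648 ± 78.6 CPM in tip and 101 ± 18.8 CPM in trunk (6.42-fold, adjusted p = 0.0361). The glycine enzyme Gcat averaged 494 ± 115 against 73.4 ± 26.2 CPM, the creatine synthesis enzyme Gamt 475 ± 60.6 against 105 ± 13.7 CPM, and the glutathione transferase Gstm1 225 ± 83.1 against 23.6 ± 5.74 CPM, with adjusted p of 0.0361, 0.0458 and 0.0458. Gstm1 has close paralogs whose reads the counting may have mixed. Spermidine synthase (Srm), which lies outside the rule for naming genes and is given because the calls are few, averaged 309 ± 39.9 against 91.3 ± 22.7 CPM (adjusted p = 0.0474). Of 40 tested genes of the endoplasmic reticulum and secretory pathway, 1 (Xbp1) was called, 19 had an unadjusted p under 0.05, all of them in favour of tip, and 11 did not overlap. In favour of tip, 5.71% of all tested genes had such a p and 5.02% did not overlap. The chaperones Hspa5 and Hsp90b1 averaged 1999.6 ± 375 and 1564 ± 116 CPM in tip against 1531 ± 234 and 1292 ± 169.7 CPM in trunk, and the disulfide isomerase P4hb 1528 ± 403 against 824 ± 147 CPM, none past the threshold. Of 23 tested amino acid supply genes, Gamt was called, 8 had an unadjusted p under 0.05 and 9 did not overlap, again all in favour of tip, the serine synthesis enzyme Phgdh at 275 ± 37.3 against 99.3 ± 28.4 CPM among them. Lactate dehydrogenase A (Ldha) averaged 777 ± 199 against 243 ± 87.2 CPM and was not called (adjusted p = 0.14).

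The remaining tip calls included genes with almost no reads in trunk. Edaradd, the adaptor of the ectodysplasin receptor, stood at 116, 51.5, 42.2 and 76.3 CPM in tip and had 7 reads in all trunk sums together. Cpne8, a calcium-dependent membrane-binding copine, stood at 58, 31.3, 98.9 and 111 CPM in tip and had 14 reads in all trunk sums. Each tip sum of both genes was far above each trunk sum, with log2 differences of 9.91 (SE 0.81, adjusted p = 0.037) and 9.48 (SE 0.56, adjusted p = 0.0218). Mest, an imprinted gene, was at 922, 2736, 1538 and 812 CPM in tip and 162, 459.6, 272 and 63.3 CPM in trunk sums. Both sides moved together over plates, plate 2 being highest on each, and the adjusted p was 0.0474 with the block but 0.078 without it. The matrix protein gene Matn4 averaged 142 ± 64.4 against 11.7 ± 7.86 CPM, with an adjusted p of 0.0489 and of 0.057 without the block. A start of Matn4 (reverse strand, window chr2:164404819-164405068) lies close to that of Rbpjl (forward strand, window chr2:164402944-164403193). The strand setting is not given in the sources used here, and mixing of reads between these genes was not tested.

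**Figure D3:**
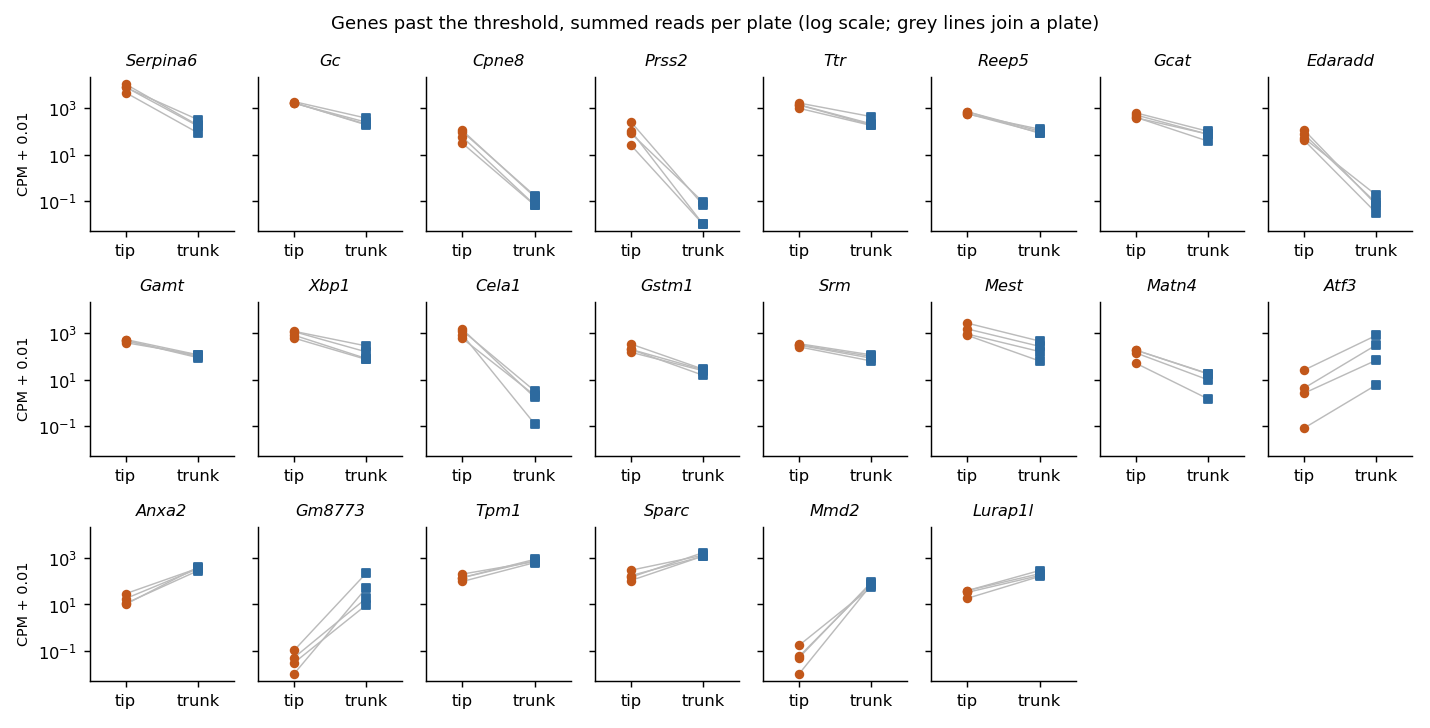
Summed CPM + 0.01 (log scale) of the 22 genes at an adjusted p under 0.05 in the 4 tip sums (circles) and 4 trunk sums (squares), with grey lines joining the sides of a plate. The lines of the first 15 genes fall from tip to trunk and those of the last 7 rise in every plate, and only Atf3 has tip and trunk sums that overlap between plates.

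On the trunk side, Sparc, a secreted protein that binds basement membrane collagen, stood at 175, 149.6, 108 and 301 CPM in tip and 1199, 1732, 1226 and 1344 CPM in trunk sums. The groups were well apart, with a 7.51-fold ratio of means and a log2 difference of -2.94 (SE 0.29, adjusted p = 0.0474). Of 28 tested integrin and basement membrane genes, Sparc was called, 9 had all trunk sums above all tip sums, and 1 the reverse. Among all tested genes these shares were 5.46% and 5.02%. Collagen XVIII (Col18a1) averaged 92.1 ± 77.99 CPM in tip and 664 ± 148 CPM in trunk, and laminin beta 1 (Lamb1) 216 ± 67.1 and 404 ± 70.6 CPM, neither past the threshold. Tropomyosin 1 (Tpm1), an actin-filament protein, was at 144, 98.3, 145 and 205 CPM in tip and 776, 643, 886 and 708 CPM in trunk (5.08-fold, adjusted p = 0.0471). Lurap1l averaged 32.9 ± 10.1 CPM in tip and 212 ± 57.97 CPM in trunk (6.45-fold, adjusted p = 0.0474).

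Some markers of mesenchyme were also higher in trunk. The 19 mesenchyme markers besides Col3a1 summed to between 394 and 727 CPM in tip and between 1070 and 1806 CPM in trunk sums, most of it vimentin (Vim) at 460.1 ± 113 and 1037 ± 285 CPM and fibronectin (Fn1) at 55.5 ± 31.01 and 287 ± 55.9 CPM. Of the 13 tested, 8 had a difference in favour of trunk and 5 in favour of tip, and edgeR called none. All trunk sums were above all tip sums for 3 (Vim, Fn1 and Mfap4), and 1, Pdgfrb, was the reverse, against 5.46% and 5.02% of all tested genes. DESeq2 called 4 in trunk and 1 in tip (6.43% and 4.45% of all tested genes). Mfap4, a microfibril-associated protein, averaged 2.31 ± 2.81 and 68.5 ± 68.9 CPM, and Pdgfrb, a growth factor receptor of mesenchyme and pericytes, 25.3 ± 13.7 and 1.18 ± 1.38 CPM, neither past the edgeR threshold (adjusted p = 0.256 and 0.178). Both were named after their values were seen. Among fibrillar collagens, which the gate on low Col3a1 may hold down, Col1a1 was at most 5.796 CPM in a tip sum and 8.51 CPM in a trunk sum, and Col1a2 at most 13.5 and 5.55 CPM. Sparc is itself a gene of mesenchyme, and the part of these markers in its trunk level was not tested.

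Mmd2, of the progestin and adipoQ receptor family, was close to absent from tip, with 7 reads over all tip sums and 78.9, 71.6, 90.1 and 55.4 CPM in trunk sums. Its trunk level was alike in all plates (adjusted p = 0.0474). The predicted gene Gm8773, outside the naming rule and given because the calls are few, had 4 reads in tip and 225, 51.5, 9.48 and 18.4 CPM in trunk sums, a wide spread headed by plate 1 (adjusted p = 0.0458).

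Atf3, a stress-induced transcription factor, was called in favour of trunk although its plates overlapped. It stood at 2.57, 0.0701, 4.27 and 25.7 CPM in tip and 68.9, 5.89, 315 and 816 CPM in trunk sums. Trunk was higher within each plate, while trunk plate 2 lay below tip plate 4, so the call rests on the block: the adjusted p was 0.0277 with it and 0.226 without it. Of 21 tested immediate early genes, Atf3 was called, 9 had an unadjusted p under 0.05 and 6 did not overlap, all in favour of trunk. In favour of trunk, 6.34% of all tested genes had such a p and 5.46% did not overlap. Fos and Jun, which form the AP-1 factor, averaged 405 ± 80.4 and 398 ± 48.3 CPM in tip and 1391 ± 486 and 1147 ± 426 CPM in trunk, and Klf6 85.2 ± 51.5 and 707 ± 346 CPM. The part of the depth and mitochondrial values given above in these genes was not tested.

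Pathway genes outside these groups gave no call. Ccn1 (Cyr61), a matrix-associated target of the Hippo effector YAP, was abundant in trunk, at 363, 783, 324 and 684 CPM in tip and 7333, 3371, 3369.6 and 5738 CPM in trunk sums. The sides did not overlap and the adjusted p was 0.0823, and 0.0117 without the block. Amotl2, a YAP-binding scaffold protein and also a gene of the Neurog3 list, averaged 67.9 ± 44.5 and 535 ± 87.99 CPM (adjusted p = 0.127, and 0.0242 without the block). Of 15 tested Hippo genes, 4 had all trunk sums above tip and 1 the reverse, against 5.46% and 5.02% of all tested genes. The FGF receptor gene Fgfr2, which receives mesenchymal FGF10, averaged 73.3 ± 37.3 CPM in tip and 306 ± 40.1 CPM in trunk, without overlap (adjusted p = 0.183). Bmp7 averaged 467 ± 115 and 211 ± 38.4 CPM, without overlap, and the ligand gene Wnt7b 59.96 ± 19.5 and 163 ± 79.1 CPM, higher in trunk in 4 of 4 plates but overlapping. The adjusted p were 0.127 and 0.321.

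No gene of the S phase or G2 and M phase lists passed the test. Of 44 S phase and 52 G2 and M phase genes edgeR called 0 and 0, 2 and 0 had an unadjusted p under 0.05, DESeq2 called 1 and 1, and the median log2 differences were 0.01 and 0.37. Among all tested genes edgeR called 0.155% in either direction. In favour of tip and trunk, 5.71% and 6.34% had such a p, and DESeq2 called 4.45% and 6.43%. With so few calls among all genes, the lack of edgeR calls does not show that the sides cycled alike. Cyclin D2 (Ccnd2) stood at 783, 729, 828 and 776 CPM in tip and 233, 312, 323 and 169.8 CPM in trunk sums. Its sides did not overlap, with an adjusted p of 0.0823, and 0.0114 without the block. The inhibitor genes Cdkn1c and Cdkn1a averaged 342 ± 138 and 233 ± 80.5 CPM in tip and 722 ± 309.7 and 565 ± 329 CPM in trunk, and both overlapped.

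The remaining lists held no call. For scale, 5.02% and 5.46% of all tested genes did not overlap in favour of tip and trunk, and DESeq2 called 4.45% and 6.43%. In the list of pancreatic epithelium and early progenitor genes, 21 were tested, with 5 not overlapping in favour of tip and 4 in favour of trunk. Pdx1, the pancreatic master factor, averaged 126 ± 37.3 CPM in tip and 80.3 ± 30.6 CPM in trunk (adjusted p = 0.548). Of 25 tested genes of the primary cilium, the sensory organelle of duct cells, 6 did not overlap, all in favour of trunk, and DESeq2 called 5. Of 32 tested genes of polarity, junctions and lumen, 2 and 5 did not overlap in favour of tip and trunk. Of 23 tested glycolysis and hypoxia genes these numbers were 4 and 3, of 18 cyclins and cell cycle inhibitors 1 and 2, of 19 FGF genes 1 and 2, of 26 Wnt genes 0 and 1, and of 18 TGF-beta, BMP and Hedgehog genes 2 and 2.

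Markers of further cell types were summed as well. Over their lists, tip and trunk sums lay at 44.6 to 90.2 and 51.2 to 169.7 CPM for mesothelium, 28.5 to 81.05 and 8.74 to 45.4 CPM for endothelium, and 8.48 to 164 and 13.03 to 221 CPM for erythroid cells. Leukocyte markers summed to 17.3 to 40.3 CPM in tip and 5.74 to 24.9 CPM in trunk, neural markers to 83.7 to 223 and 80.98 to 179 CPM, and endocrine hormone and granule genes to 67.9 to 248 and 27 to 179.6 CPM. All these ranges overlapped between sides, but single members did not. The complement gene C1qa, of the leukocyte list, stood at 39.6, 14.5, 26.2 and 21.5 CPM in tip and 6.93, 0, 0.946 and 0 CPM in trunk sums. All tip sums were above all trunk sums (adjusted p = 0.322, DESeq2 adjusted p = 5.07e-05), while C1qb and C1qc did not exceed 0.0201 CPM in any sum. Of the neural list, the receptor gene Ret averaged 65.7 ± 57.04 and 0.0993 ± 0.0768 CPM and the neural crest factor Sox10 1.52 ± 2.83 and 16.96 ± 11.2 CPM, both without overlap (adjusted p = 0.0571 and 0.366). These 3 genes were named after their values were seen.

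**Figure D4:**
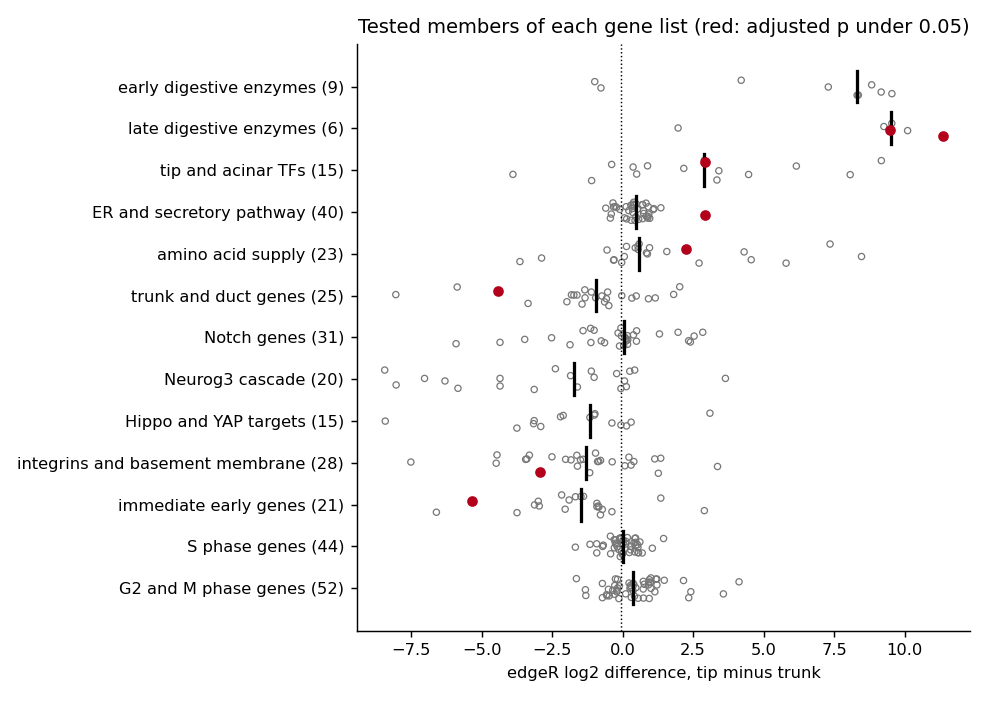
Fitted log2 differences (tip minus trunk, x axis) of the tested members of 13 gene lists (numbers tested in brackets), with black bars at list medians, red points at an adjusted p under 0.05 and a dotted line at the median of all tested genes, -0.05. The enzyme lists lie far to the right at medians of 8.31 and 9.51, trunk and duct genes to the left at -0.96, and S phase genes about the line.

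Tip cells that also held Spp1 were looked at apart from the others. In the 30 tip cells under the Spp1 minimum, Rbpjl averaged 844 ± 169 CPM over plates, in the 20 tip cells over it 406 ± 256 CPM, and in trunk cells 3.70 ± 3.27 CPM (SD, n = 4 plates). Ctrb1 averaged 6907 ± 3793, 1069 ± 1079 and 11.95 ± 16.7 CPM in the same order, Nkx6-1 60.4 ± 50.5, 230 ± 84.4 and 417 ± 68.9 CPM, and Dcdc2a 0.239 ± 0.274, 16.01 ± 17.2 and 168 ± 8.70 CPM. For these 4 genes, chosen after their values were seen, the mean of the Spp1-positive tip cells lay between the other classes, with a wide spread, a plate holding 3 to 7 such cells. In plate 2 Dcdc2a was at 0.134 CPM in these cells and 0.147 CPM in the other tip cells. Other genes did not lie between: Dll1 averaged 194 ± 90.9, 24.7 ± 21.5 and 174 ± 129.7 CPM in the same order. Heyl, a Hey-family gene of the Notch list, averaged 13.1 ± 10.01, 54.7 ± 27.5 and 11.4 ± 14.97 CPM. The comparison without these 20 cells gave 18 genes higher in tip and 9 in trunk, 12 and 2 of them among the 22. No doublet caller was run, since cells were sorted singly into wells; when the 5% of wells richest in detected genes were dropped plate by plate, 25 and 8 genes passed.

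The same gate was applied to 3 plates of E15.25 C57BL/6 pancreas, of which 2 are labelled tip, from buds 1 and 2, and 1 is labelled trunk, from bud 2. They had no part in choosing the members. They held 40, 27 and 29 tip-gated and 11, 14 and 16 trunk-gated cells, so the plate labelled trunk held more tip-gated than trunk-gated cells. In the joint edgeR fit of both ages, all 15 genes called in tip and all 7 called in trunk had the same direction at E15.25, compared with 60.7% of all genes tested. Of these, 14 and 5 passed the threshold there, against 1.5% (259) and 1.01% (174) of 17259 genes tested. The joint fit estimated the spread of each gene from both ages. The E15.25 p-values of genes chosen at E13.25 are therefore not independent of that choice. Moreover, 2 of the 3 plates share bud 2, so they may not be separate replicates. Serpina6 had a log2 difference of 6.88 (SE 0.29) at E15.25, Anxa2 -3.67 (SE 0.35) and Sparc -4.41 (SE 0.43). The 3 that did not pass there were Cpne8, Atf3 and Gm8773, at 3.30 (SE 0.81), -0.54 (SE 0.43) and -1.66 (SE 1.48). Gm8773 was close to absent at E15.25, with at most 0.0195 CPM in a tip sum and 0.123 CPM in a trunk sum. Its direction there carries little weight. Jag1 stood at 0.24 (SE 0.36) at E15.25. The interaction of side and age was past the adjusted threshold for 0 of 17259 genes (0.0%) by edgeR and for 804 (4.66%) by DESeq2. By edgeR, 1470 genes (8.52%) had an unadjusted p under 0.05, and after adjustment no gene was shown to differ between the ages. Such an unadjusted p was found for 12 of the 15 genes called in tip and 4 of the 7 called in trunk. These genes were selected on their E13.25 values, which enter the interaction. Its log2 value, E15.25 minus E13.25, was for example -4.73 for Prss2 and 2.79 for Gamt, so the size of the difference was not alike at both ages for every call.

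**Figure D5:**
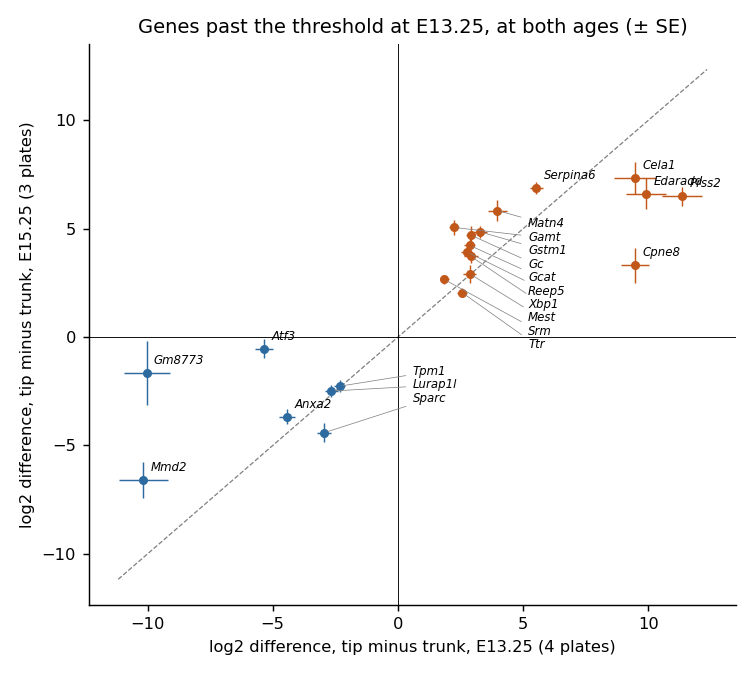
Log2 difference between tip and trunk (± SE) of the 22 called genes at E13.25 (x axis, 4 plates, own fit) and at E15.25 (y axis, 3 plates, joint fit), with the dashed line marking equal values. All lie in the quadrants of equal sign, and Atf3 and Gm8773, the latter with few reads, lie nearest to 0 at E15.25.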

How the data were processed

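Single-cell RNA-seq libraries of E13.25 and E15.25 mouse pancreas were deposited as raw read counts per gene, 1 column a cell, with 46078 genes, 92 ERCC spike-ins and 5 classes of unassigned reads. Per the submitters' processing notes, the tools were GSNAP and HTSeq 0.5.3p3 with build mm10. Strand setting, annotation and treatment of multi-mapping reads are not given in the sources used here. No molecular identifiers were used in the deposited counts, which therefore count reads, not molecules.

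Cells with at least 100000 reads on genes, 1500 genes and at most 20% mitochondrial reads were kept. CPM used reads on genes, leaving out spike-ins and unassigned classes, which held 53.7% of all counts. Tip and trunk cells were chosen by the gate in the report. Raw counts were summed per plate and side and tested with edgeR 4.0.16 in R 4.3.3 (TMM, filterByExpr, quasi-likelihood F test, plate as block), with Benjamini-Hochberg adjustment over 14237 genes, the 5 gate genes left out. Standard errors are the absolute log2 difference divided by the square root of F. Every adjusted p in the text is from this test unless DESeq2 1.42.0 is named. Single values over plates were compared by an exact two-sided sign-flip permutation test. Scripts were tested on simulated data.

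The plate was the block because both sides of a plate share that plate and its pancreas number in the labels, which do not state that a plate held 1 pancreas. Same-plate sums deviated together only weakly, with correlations of 0.0213, 0.0537, 0.0877 and 0.0621 over genes for plates 1 to 4. Across plates the correlations ran from -0.0678 to 0.035, and each tip sum correlated most with the trunk sum of its own plate. The sign of pairing was thus small, but it ran the same way in every plate.

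Genes named were the 12 of largest log2 difference per direction among those past the threshold, with at least 20 CPM in every plate of the higher side, and members of the gene lists. Members and lists were chosen with earlier results of these data known. Alternatives covered the tool, scaling, low-count filter, block, plates, gate thresholds and cells left out. Motifs were searched in RefSeq promoters of GRCm38.p6. Some items are not reported here.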

Additional observations from a re-analysis of the deposited data

Results flagged for a closer look

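In 15 of 172 groups of 4 plate sums looked at (8.72%), 1 sum stood apart from the other 3 by more than Dixon's 95% limit. Chance gives about 1 in 20 such groups, so single cases carry little weight. In trunk sums, Ttr was highest in plate 4 at 440.6 CPM, Bicc1 in plate 4 at 447.2 CPM, Ptf1a in plate 3 at 5.356 CPM, Pdgfrb in plate 3 at 3.242 CPM, C1qa in plate 1 at 6.933 CPM and Bhlha15 in plate 2 at 24.62 CPM. In tip sums, Atf3 was highest in plate 4 at 25.68 CPM, Neurog3 in plate 4 at 7.539 CPM, Mfap4 in plate 4 at 6.491 CPM and Mmp7 in plate 4 at 0.1209 CPM. The tip sum of plate 3 was highest for Cldn3 at 543.9 CPM, for Dll1 at 240.8 CPM and for Sox10 at 5.759 CPM, that of plate 1 for Notch2 at 75.48 CPM, and that of plate 2 was lowest for Bhlha15 at 71.87 CPM. By plate, 2 of the 15 lay in plate 1, 2 in plate 2, 5 in plate 3 and 6 in plate 4.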

How the results depend on the processing

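The number of calls moved with the settings far more than the direction of the genes. Against 15 genes higher in tip and 7 in trunk, DESeq2 called 633 and 916, edgeR without a filter on low counts 41 and 12, edgeR with no replicate block 90 and 59, and equal weight for each cell 41 and 13. Fits without 1 plate gave 0 to 1 genes in tip and 0 to 0 in trunk. A Cpa1 minimum of 3000 CPM gave 4 and 2 genes, leaving out Neurog3 cells 8 and 2, and dropping the 5% of wells richest in genes 25 and 8, while a Cpa1 minimum of 300 CPM gave 22 and 3. The other settings stayed within 1.5 times of both counts. Of the 15 and 7 genes, equal weight for each cell kept 12 and 3, and edgeR without a filter on low counts kept all. A Cpa1 minimum of 300 CPM kept 13 and 2 of them, and that of 3000 CPM 3 and 1. All 15 tip genes and 7 trunk genes kept their direction in each setting in which they were tested, Gm8773 not being tested without Neurog3 cells. Of the values of called genes over settings, 222 stayed past the threshold and 151 did not. Scaling by library totals moved the median log2 difference of all genes from -0.05 to -0.11.

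Genes differing between the ages numbered 0 by edgeR, 804 by DESeq2, 3 without a filter and 1 without the second E15.25 tip plate.

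Signs changed in 15 cases, all of genes that did not pass the threshold. Nr5a2 came to -0.013 without tip cells that have both genes and -0.21 without Neurog3 cells, and Cdkn1a to 0.74 without Neurog3 cells. Onecut1 ran from -0.22 to 0.16 over fits without 1 plate, above 0 without plates 2 (0.07) and 3 (0.16), and came to 0.20 and 0.32 at Cpa1 minima of 300 and 3000 CPM, 0.14 without tip cells with both genes and 0.094 when the 5% of wells richest in genes were dropped. Dll1 ran from -0.77 to 0.59 over fits without 1 plate, above 0 without plates 1 (0.59) and 2 (0.55), and came to 0.45 at the Cpa1 minimum of 3000 CPM, 0.55 without tip cells with both genes, 4.64 without Neurog3 cells and 0.69 with equal weight for each cell. The cause was not tested.

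Fewer plates leave fewer degrees of freedom, and 4 plates cannot bring an exact p below 0.13. Genes with few reads on a side have fitted differences that depend on the prior count.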
